A study of Mus musculus with 6 samples.

Results

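Blood platelets read their surroundings through receptors for soluble agonists, and the mRNAs of 9 such receptors were followed here in mouse platelets that carry a changed integrin β3. The genes were taken by symbol: P2ry1, P2ry12 and P2rx1 for nucleotides, F2rl2 and F2rl3 for thrombin, Tbxa2r, Ptger3 and Ptgir for prostanoids, and Adra2a for adrenaline. All 9 were among the 24346 gene symbols of the expression tables, and 12260 of those symbols were above 0 in any library. Each of 6 libraries held total RNA of thrombocytes from mouse blood: 3 came from wild-type animals, and the other 3 from animals in which both copies of the integrin β3 gene carry the R734C change by knock-in (knock-in below; R734C homozygous in the plots). The labels give no strain, age, sex or treatment, and do not say whether replicates came from separate animals, so p-values measure the spread between these libraries, which may be technical.

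ADP released from dense granules acts on P2Y1, which couples to Gq and mobilises calcium, and on P2Y12, which couples to Gi and lowers cyclic AMP. P2X1 is an ion channel gated by ATP. Thrombin cleaves the extracellular end of protease-activated receptors; mouse platelets signal through PAR4, the product of F2rl3, while PAR3, the product of F2rl2, helps thrombin reach PAR4. The thromboxane receptor couples to Gq and G13, the EP3 receptor of prostaglandin E and the α2A-adrenergic receptor couple to Gi, and the prostacyclin receptor, encoded by Ptgir, couples to Gs and restrains platelets by raising cyclic AMP.

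Sequences upstream of the 2 metabotropic ADP receptor genes and the 2 thrombin receptor genes are printed so that the pairs compared below can be set side by side. The windows searched were the 250 bases before the RefSeq transcription start, in build GRCm38.p6, read 5′ to 3′ on the gene's strand. For F2rl2 the last 67 of them lie inside the gene as GENCODE annotates it, and the 183 bases before those are printed. The printed runs lie at chr3:61002535-61002784 (plus strand) for P2ry1, chr3:59262986-59263235 (minus) for P2ry12, chr13:95696670-95696852 (plus) for F2rl2 and chr8:72761409-72761658 (plus) for F2rl3. AGATAA, a motif of GATA factors, and TGAGTCA, a motif of NF-E2 and AP-1 factors, were searched on both strands, and capitals mark matches of AGATAA. The 2 motifs share no position.
P2ry1: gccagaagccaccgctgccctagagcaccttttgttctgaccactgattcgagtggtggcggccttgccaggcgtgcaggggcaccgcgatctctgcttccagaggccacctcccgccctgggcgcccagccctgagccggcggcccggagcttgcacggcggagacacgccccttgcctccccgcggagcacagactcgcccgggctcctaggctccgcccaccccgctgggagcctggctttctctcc
P2ry12: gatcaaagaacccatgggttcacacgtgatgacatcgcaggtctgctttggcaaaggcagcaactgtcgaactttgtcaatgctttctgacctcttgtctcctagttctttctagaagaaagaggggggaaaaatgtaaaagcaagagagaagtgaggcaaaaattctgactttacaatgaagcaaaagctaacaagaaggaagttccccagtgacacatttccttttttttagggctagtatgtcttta
F2rl2: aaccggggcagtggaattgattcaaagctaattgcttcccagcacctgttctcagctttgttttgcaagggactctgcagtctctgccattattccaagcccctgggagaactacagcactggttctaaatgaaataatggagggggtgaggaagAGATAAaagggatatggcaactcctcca
F2rl3: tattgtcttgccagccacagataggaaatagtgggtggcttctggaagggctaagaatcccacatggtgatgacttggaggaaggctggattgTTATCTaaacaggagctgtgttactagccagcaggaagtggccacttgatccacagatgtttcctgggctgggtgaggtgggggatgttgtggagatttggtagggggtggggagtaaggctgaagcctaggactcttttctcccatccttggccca
AGATAA stood 95 to 90 bases before the RefSeq start of F2rl2, and its reverse complement 157 to 152 bases before that of F2rl3. It was also in the window of P2rx1, so 3 of the 9 genes held it, and 9.99% of 32851 promoter windows in the RefSeq table did. TGAGTCA stood 54 to 48 bases before the RefSeq start of F2rl2, inside the gene as GENCODE annotates it, and in no other window of the 9 genes, and 4.46% of all windows held it. The P2ry1 and P2ry12 windows held neither run of letters. These are matches of letters and not tested sites.

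The values are FPKM, fragments relative to transcript length and library size, so levels can be compared between genes only roughly. A value near 0 may also be a failed estimate. The commonest ratio of low values placed the depth of the libraries between 0.882 and 1.05 times that of wild-type library 1, and a rough estimate from genes with 1 annotated transcript gave 7620000 to 9110000 fragments. The FPKM of a library summed to 641278 to 708432 for the wild type, against 758381 to 856863 for the knock-in. Itgb3 itself, whose base change cannot be seen in FPKM, measured 1208 ± 104 FPKM for the wild type against 859 ± 50.8 for the knock-in (SD, n = 3 each; limma adjusted p = 0.0190). Of 14 platelet and megakaryocyte markers, all were tested, 1 was called higher (Nrgn, log2 fold change 0.46) and 3 lower (Tubb1, -0.82; Gp1ba, -0.65; Itgb3, -0.49), beside 8.36% of all tested genes called, and their summed level, led by Pf4 and Ppbp, was 58119 to 60444 FPKM in the wild type against 54270 to 60369 in the knock-in. Erythroid markers, of which 10 of 12 were in the tables and all 10 above 0, summed to 61004, 30702 and 24681 FPKM in wild-type libraries 1, 2 and 3 against 115710, 16994 and 21451 in knock-in libraries 1, 2 and 3. Neutrophil markers (10 of 13 above 0; Camp, Elane and Mpo at 0) summed to 0.352 to 2.35 FPKM in the wild type against 0.967 to 2.08 in the knock-in. B cell markers (4 of 8 above 0; Ms4a1, Pax5, Blk and Cd22 at 0) reached at most 0.588 and 1.14. T and NK cell markers (7 of 12 above 0; Cd3d, Cd3e, Cd4, Klrb1c and Ncr1 at 0) summed to 2.67 to 4.46 and 5.09 to 8.83, most of it Nkg7. Monocyte and macrophage markers (10 of 11 above 0; Cx3cr1 at 0) summed to 7896 to 9120 and 8000 to 10009, most of it Lyz2, while Csf1r measured 0.139 to 0.725 FPKM in the wild type against 0.113 to 0.134 in the knock-in. Of 8 endothelial markers all but Robo4 were above 0, with sums of 446 to 504 and 406 to 448 FPKM. Most of each sum was Esam, which platelets also express. Plvap averaged 32.5 FPKM for the wild type against 33.8 for the knock-in, Tie1 4.56 against 6.63, and Kdr 3.99 against 2.91. Cdh5, Tek and Emcn were at most 0.125, 0.554 and 0.425 FPKM, in that order. In such bulk RNA, fewer cells of a type and less RNA per cell cannot be told apart.

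The receptor mRNAs spanned a wide range of levels. P2ry12 had the highest mean FPKM of the 9 and ranked 96 among all symbols by mean over the 6 libraries. P2rx1 ranked 199, F2rl2 253 and P2ry1 922. Ptgir ranked 1903, F2rl3 2119 and Ptger3 2859, and Tbxa2r and Adra2a, at 5594 and 9937, lay below a mean of 1 FPKM. Within each library P2ry12 was above P2rx1, P2rx1 above F2rl2, F2rl2 above P2ry1, and P2ry1 above Ptgir. Ptgir, F2rl3 and Ptger3, next in order, had overlapping ranges.

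**Figure D1:**
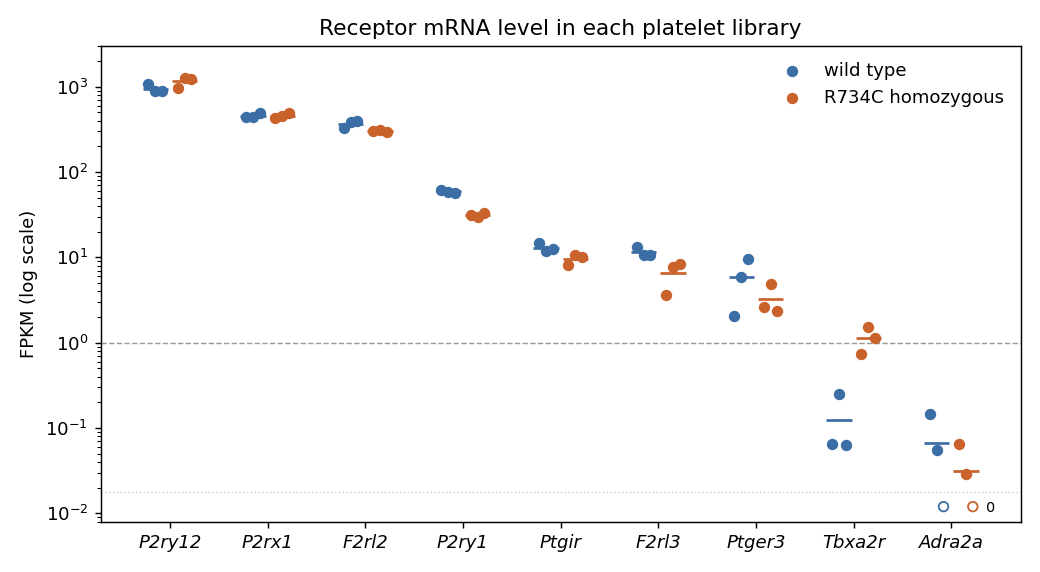
FPKM (log scale) of the 9 receptor genes in each of 3 wild-type (blue) and 3 knock-in (orange) libraries, with horizontal bars at group means and open circles for values of 0. P2ry1 lies at 56.7 to 62.3 FPKM in wild-type and at 29.7 to 33.3 in R734C libraries, and Tbxa2r lies below or just above the dashed line at 1 FPKM.

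Of the 7 receptors with a mean of at least 1 FPKM, 1 passed the test between the genotypes, P2ry1, which was lower in the knock-in. Of all 4859 genes tested by limma at an adjusted p of 0.05, 8.36% were called, 4.36% higher and 3.99% lower in the knock-in. That was 212 higher and 194 lower, a split that became 51 and 484 when the libraries were scaled to equal FPKM totals, which moved the median log2 fold change of all genes from -0.01 to -0.23. The calls over all genes, 406 in sum, also moved with single libraries, to 41 when wild-type library 2 was left out, 113 for wild-type library 3, 610 for knock-in library 1, 85 for knock-in library 2 and 0 for knock-in library 3. The median of the 7 receptors was -0.39, and 5 of them had a negative log2 fold change, as did 51.5% of all tested genes. Values of 4 of the 7 (57.1%) did not overlap between the groups, namely P2ry1, F2rl2, F2rl3 and Ptgir, all lower in the knock-in. Over all tested genes 30.7% did not overlap, 15.8% with the knock-in lower. A single value compared between 3 and 3 libraries cannot give a two-sided exact p below 0.1, so the receptors were judged by the adjusted p of the fit over all tested genes.

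**Figure D2:**
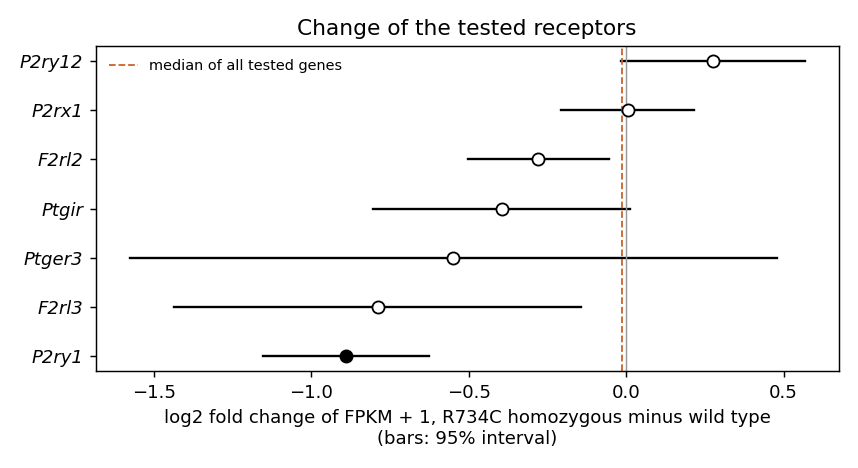
Log2 fold change of FPKM + 1 (knock-in minus wild type) for the 7 tested receptors, with 95% intervals from limma; the filled point passed at an adjusted p of 0.05 and the dashed line is the median of all tested genes, -0.01. P2ry1, at -0.89, is the only filled point, and the intervals of F2rl2 and F2rl3 also end below 0 although neither passed after adjustment over all genes.

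P2ry1, the gene of the Gq-coupled ADP receptor, measured 62.3, 58.6 and 56.7 FPKM in wild-type libraries 1, 2 and 3 against 31.5, 29.7 and 33.3 in the knock-in libraries. Every knock-in value lay below every wild-type value, and the spread within each group was small beside the gap. Group means were 59.2 ± 2.84 and 31.5 ± 1.78 FPKM (SD, n = 3 each), and the log2 fold change of -0.89 (SE 0.12, 95% interval -1.15 to -0.63, limma adjusted p = 0.00787) was a 1.85-fold fall that ranked 259 by size among the tested genes. Each value rested on roughly 933 to 2091 fragments. The gene occupies bases 61002795 to 61008982 of chromosome 3 (GRCm38, as for all positions below), plus strand. Its exons share 992 bases with Gm37035, an antisense transcript that is not in the tables, and the library kit does not mark strand, so fragments of the 2 cannot be told apart. The call was lost without knock-in library 3 (log2 fold change -0.93, limma adjusted p = 0.0507) and without the variance trend (-0.89, 0.0623). Under equal FPKM totals the log2 fold change was -1.15, or -0.91 relative to the median of all genes.

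P2ry12, the gene of the Gi-coupled ADP receptor and the target of clopidogrel, measured 1072, 887 and 882 FPKM in the wild type against 968, 1258 and 1223 in the knock-in. Knock-in library 1 lay within the wild-type range and the other two knock-in libraries lay above it. The difference did not pass (947 ± 109 against 1150 ± 159 FPKM, SD, n = 3 each; log2 fold change 0.28, SE 0.13, limma adjusted p = 0.220), with an interval from -0.02 to 0.57. Without knock-in library 1, which had the highest erythroid marker sum, P2ry12 passed as higher (0.40, limma adjusted p = 0.0381), and it also passed without both libraries numbered 1 (0.49, 0.00247). The part of erythroid RNA in this difference was not tested. Under equal FPKM totals the log2 fold change was 0.01, or 0.25 relative to the median of all genes. P2ry12 lies on chromosome 3 at 59216272 to 59262871, minus strand, inside the span of Med12l, a Mediator subunit gene on the other strand. The 2 genes share 9 exon bases, and Med12l measured 7.09 ± 0.663 and 7.61 ± 0.547 FPKM (SD, n = 3 each).

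P2rx1, for the ATP-gated channel, measured 438, 445 and 485 FPKM in the wild type against 426, 458 and 490 in the knock-in. The ranges nearly coincided. The log2 fold change, 0.01 (SE 0.09, limma adjusted p = 0.983), had an interval from -0.21 to 0.22. It was -0.26 under equal FPKM totals, or -0.02 relative to the median of all genes. With quantile normalization it was -0.09, and with the length trend removed -0.02. P2rx1 lies on chromosome 11 at 72999103 to 73015200, plus strand.

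A single scale factor per library cancels in the FPKM ratio of 2 receptors within a library. The FPKM ratio of P2ry12 to P2ry1 was 17.2, 15.1 and 15.5 in the wild type against 30.7, 42.3 and 36.8 in the knock-in. Every knock-in library had a higher ratio than every wild-type library. The ratio of P2rx1 to P2ry1 was 7.03, 7.60 and 8.56 in the wild type against 13.5, 15.4 and 14.7 in the knock-in. On the log2(FPKM + 1) scale the ratios were 1.17 and 0.89 higher in the knock-in, without overlap, each with the smallest two-sided exact permutation p this design allows (0.1; 0.133 after adjustment over 4 ratios). These 2 ratios share P2ry1 and were chosen with its fall known, so they are not independent of it.

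**Figure D3:**
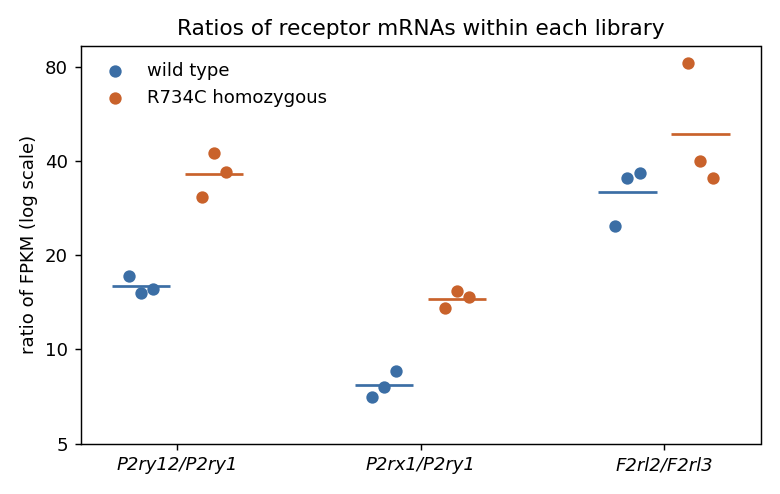
Ratio of FPKM between 2 receptor genes within each library (log scale), in wild-type (blue) and knock-in (orange) libraries, with bars at geometric means. The P2ry12/P2ry1 and P2rx1/P2ry1 ratios do not overlap between genotypes, while the F2rl2/F2rl3 ratio overlaps and has 1 high value, 82.4 in knock-in library 1.

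F2rl2, the gene of PAR3, measured 326, 380 and 391 FPKM in the wild type against 299, 309 and 294 in the knock-in. The knock-in values lay close together and below all wild-type values. The means were 366 ± 34.5 and 301 ± 7.53 FPKM (SD, n = 3 each), and the difference did not pass after adjustment (log2 fold change -0.28, SE 0.10, limma adjusted p = 0.116), with an interval from -0.50 to -0.06. It passed as lower under equal FPKM totals (-0.54, limma adjusted p = 0.0425; -0.31 relative to the median of all genes) and without both libraries numbered 1 (-0.35, 0.0219). F2rl2 lies on chromosome 13 at 95696853 to 95702739, plus strand, inside the span of Iqgap2, a scaffold protein gene on the other strand with which it shares no exon base. Iqgap2 measured 0.692 ± 0.0509 and 1.40 ± 0.356 FPKM (SD, n = 3 each).

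F2rl3, the gene of PAR4, measured 13.2, 10.7 and 10.6 FPKM in the wild type against 3.63, 7.72 and 8.34 in the knock-in. All knock-in values were lower, and knock-in library 1, with an erythroid marker sum of 115710 FPKM, was the lowest. Wild-type library 1, with the highest wild-type erythroid sum (61004 FPKM), had the highest value. The difference did not pass (11.5 ± 1.45 against 6.56 ± 2.56 FPKM, SD, n = 3 each; log2 fold change -0.79, SE 0.28, limma adjusted p = 0.123). Its interval ran from -1.43 to -0.14, and each value rested on roughly 48.4 to 199.7 fragments. Without knock-in library 1 the log2 fold change was -0.47 (limma adjusted p = 0.173), and the part of erythroid RNA in it was not tested. F2rl3 lies on chromosome 8 at 72761880 to 72763874, plus strand. The ratio of F2rl2 to F2rl3 was 24.7, 35.4 and 36.7 in the wild type against 82.4, 40.0 and 35.2 in the knock-in, overlapping ranges (two-sided exact permutation p = 0.3, also 0.3 after adjustment over 4 ratios). The difference on the log2(FPKM + 1) scale was 0.51, and 0.19 without knock-in library 1. F2r, the gene of PAR1, which signals in human but not in mouse platelets, measured 15.8, 22.7 and 51.3 FPKM in the wild type against 10.3, 8.42 and 13.7 in the knock-in (log2 fold change -1.24, limma adjusted p = 0.0840).

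Tbxa2r, the thromboxane receptor gene, had low values in both genotypes. It measured 0.0653, 0.248 and 0.0639 FPKM in the wild type against 0.744, 1.54 and 1.13 in the knock-in, where every value lay above the wild-type ones. After scaling by relative depth, the values stood at 1, 4 and 1 times the lowest in the wild type against at 10.1, 23.7 and 18.2 times in the knock-in. If the lowest value stood for 1 fragment, the wild-type level would rest on a handful of fragments. The knock-in multiples were not whole numbers, so they can be fragment numbers only roughly. Its mean of 0.632 FPKM over all libraries was below the limit for testing. The difference on the log2(FPKM + 1) scale was 0.91, and in the fit without a filter on low values, over 12260 genes, it did not pass (limma adjusted p = 0.151). It was 2.50 with a pseudocount of 0.1 and 0.26 with 5. Tbxa2r lies on chromosome 10 at 81328731 to 81335172, plus strand.

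Ptgir, for the inhibitory prostacyclin receptor, measured 14.7, 11.7 and 12.6 FPKM in the wild type against 8.17, 10.8 and 10.1 in the knock-in. The knock-in values were lower without overlap, with the highest of them close to the lowest wild-type value. The difference did not pass (SD 1.51 FPKM for the wild type and 1.35 for the knock-in, n = 3 each; log2 fold change -0.39, SE 0.18, limma adjusted p = 0.212), with an interval from -0.80 to 0.01. The ratio of Ptgir to Tbxa2r on the log2(FPKM + 1) scale was 3.64 ± 0.27 for the wild type against 2.33 ± 0.10 for the knock-in (SD, n = 3 each; two-sided exact permutation p = 0.1, 0.133 adjusted over 4 ratios), and its size is set by the pseudocount: the difference of -1.31 became -2.93 with a pseudocount of 0.1 and -0.55 with 5. Ptgir lies on chromosome 7 at 16906490 to 16910905, plus strand.

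Ptger3, for the EP3 receptor, was the least repeatable of the tested receptors. It measured 2.06, 5.81 and 9.65 FPKM in the wild type against 2.60, 4.92 and 2.33 in the knock-in, and the wild-type range held all knock-in values. The log2 fold change came to -0.55 (SE 0.45; limma adjusted p = 0.506), with an interval from -1.58 to 0.48. Without wild-type library 3 it was -0.14 and without wild-type library 1 it was -1.04, neither of which passed (limma adjusted p = 0.893 and 0.125). Ptger3 lies on chromosome 3 at 157566892 to 157645888, plus strand.

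Adra2a, for the α2A-adrenergic receptor, was at the limit of detection. It measured 0.144 and 0.0548 FPKM in wild-type libraries 1 and 2 and 0.0655 and 0.0288 in knock-in libraries 1 and 2, and was listed at 0 in both libraries numbered 3. Scaled by relative depth, the values above 0 stood at 5, 2, 2 and 1 times the lowest, so no difference was detectable at this depth. An exact 0 in such tables can stand for few fragments or for a failed estimate, and the 2 cannot be told apart here. Of 14 housekeeping genes, Tbp and Hprt were at 0 in some library, and both were low throughout, at most 0.902 and 0.635 FPKM. Adra2a lies on chromosome 19 at 54044151 to 54048982, plus strand. None of P2rx1, F2rl3, Tbxa2r, Ptger3, Ptgir and Adra2a overlapped another annotated gene.

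**Figure D4:**
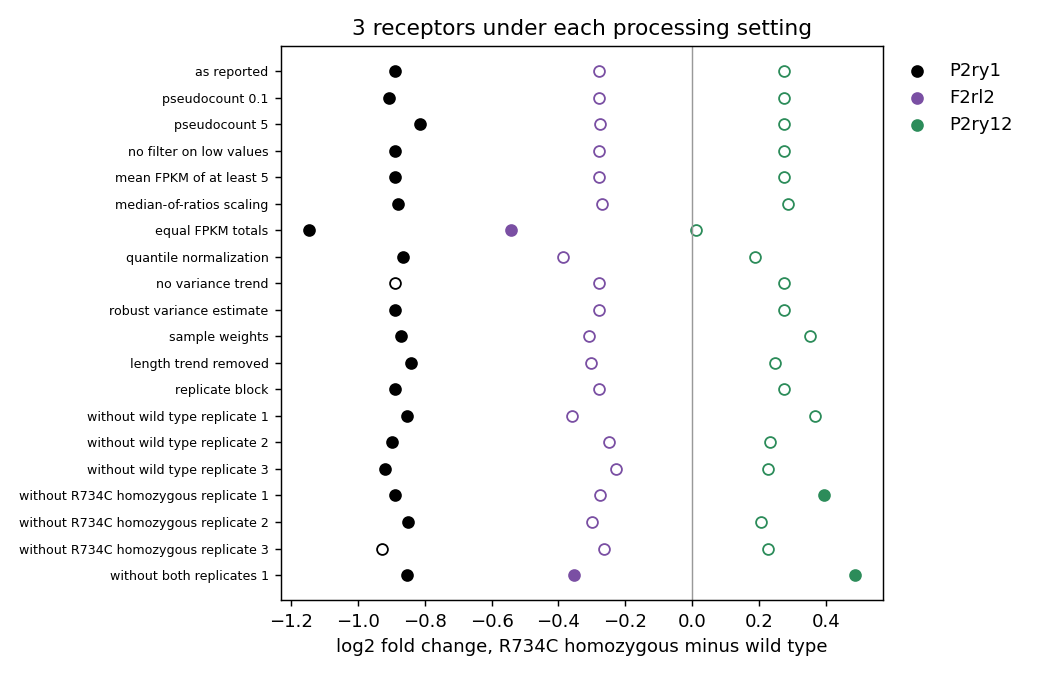
Log2 fold change (knock-in minus wild type) of P2ry1, F2rl2 and P2ry12 as reported and under each of 19 other settings; filled points passed at a limma adjusted p of 0.05. P2ry1 stays between -1.15 and -0.81 and passes in 17 of the 19, F2rl2 and P2ry12 pass in 2 each, and none of the 3 changes sign. Settings of the filter, variance estimate or replicate block cannot move a log2 fold change. For P2ry1 and F2rl2, whose groups did not overlap, other pseudocounts, sample weights or leaving out libraries cannot change the sign.

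The 5 genes whose values across the 6 libraries were most like those of P2ry1, among 2014 others with a mean of at least 10 FPKM, were Lasp1, Tubb1, Prkar2b, Trpc4ap and Scamp2. Likeness was the root mean square difference of the centred log2(FPKM + 1) values, which was 0.0640 for Lasp1, an actin-binding LIM protein gene, and 0.0990 for Scamp2. Tubb1 encodes the β-tubulin of the platelet marginal band and Prkar2b a regulatory subunit of the cyclic AMP-dependent kinase. The order is a description over 6 libraries and carries no test.

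Other receptors of soluble ligands were mostly at or near 0. Of 42 in the tables, 24 were above 0 in any library and 4 were tested, of which none was called. At an unadjusted p under 0.05, 1234 of all tested genes differed. The serotonin receptor gene Htr2a, the platelet-activating factor receptor gene Ptafr and the adenosine receptor gene Adora2a did not exceed 0.712, 0 and 0.903 FPKM, in that order. F2r was called lower under equal FPKM totals, with the replicate block, without wild-type library 1 and without both libraries numbered 1.

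Among the genes that pass on the signal of these receptors, no α subunit gene was called; Gnaz came nearest, at 163 ± 5.11 and 127 ± 8.52 FPKM (SD, n = 3 each; limma adjusted p = 0.0580), and was called lower under equal FPKM totals, with sample weights and when genes under a mean of 5 FPKM were left out. Of 20 tested G protein, regulator and adaptor genes, 1 rose and 1 fell, which is near the 8.36% called over all tested genes, with a median log2 fold change of -0.18. Gng5, a γ subunit gene, rose from 1161 ± 38.8 to 1878 ± 152 FPKM (SD, n = 3 each; log2 fold change 0.69, limma adjusted p = 0.00759), but did not pass under equal FPKM totals. Grk6, a kinase that desensitises receptors, fell from 31.5 ± 4.66 to 19.8 ± 1.44 FPKM (log2 fold change -0.64, limma adjusted p = 0.0388). Gnaq, the α subunit coupled to P2Y1 and the thromboxane receptor, measured 30.6 ± 4.04 and 25.6 ± 2.89 FPKM (limma adjusted p = 0.361). Gnai2, coupled to P2Y12, measured 354 ± 42.5 and 386 ± 11.7 FPKM (0.506), Gna13 11.4 ± 3.47 and 8.56 ± 1.47 (0.460), and Gnas, coupled to the prostacyclin receptor, 2336 ± 282 and 2721 ± 152 (0.221; SD, n = 3 each). Gng11, the most abundant gene of the list, measured 7018 ± 294 and 8989 ± 990 FPKM (limma adjusted p = 0.0629) and was called higher in 5 of 19 alternatives. The call for Grk6 was lost when any 1 library was left out, and that for Gng5 without knock-in library 3.

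Among effectors downstream of Gq, Gi and G13, 5 of 23 tested genes fell and none rose, beside 3.99% of all tested genes lower, with a median log2 fold change of -0.23. The 5 were store-operated calcium entry and protein kinase C genes. All the partner lists were chosen with earlier results of these data known, so the share called in a list is a description and no test of the list. Orai1, the calcium channel, fell from 37.0 ± 4.58 to 17.0 ± 1.43 FPKM (log2 fold change -1.07, limma adjusted p = 0.00849). Its sensor in the endoplasmic reticulum, Stim1, fell from 100.1 ± 12.7 to 58.3 ± 8.19 FPKM (-0.77, 0.0169). Prkcd fell from 57.2 ± 4.97 to 26.2 ± 1.26 FPKM (-1.09, 0.00759), Prkcq from 268 ± 63.5 to 156 ± 21.2 (-0.76, 0.0394) and Prkca from 23.5 ± 1.60 to 14.9 ± 1.76 (-0.63, 0.0379; SD, n = 3 each). Rap1b, the small GTPase that relays these signals to integrins and the most abundant gene of the list, measured 1980 ± 245 and 1871 ± 107 FPKM (limma adjusted p = 0.702). Plcb2 and Plcb3, phospholipases that act directly below Gq, did not exceed 0.0607 and 0.477 FPKM in any library and were listed at 0 in 3 and 5 of the 6. As for Adra2a and Tbxa2r, low transcript numbers and a failed estimate cannot be told apart in such values. Leaving out wild-type library 2 kept 1 of the 5 calls (Prkcd), leaving out wild-type library 3 kept 2 (Prkcd and Orai1), as did leaving out knock-in library 2, and leaving out knock-in library 3 kept 0.

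The list of genes that make, bind, break down or export cyclic nucleotides, or are targets of their kinases, mixes opposed roles. All 12 of its tested genes had a negative log2 fold change, as did 51.5% of all tested genes, and 2 passed as lower, beside 3.99% of all, with a median of -0.26 against -0.01 for all. Prkar2b fell from 956 ± 101 to 507 ± 16.2 FPKM (log2 fold change -0.91, limma adjusted p = 0.00759) and Pde5a, a cyclic GMP phosphodiesterase gene, from 47.2 ± 1.77 to 29.7 ± 5.97 FPKM (-0.67, 0.0421; SD, n = 3 each). Adcy6, an adenylyl cyclase gene, measured 4.18 ± 0.245 and 3.87 ± 1.21 FPKM (limma adjusted p = 0.816). The call for Pde5a was lost when any 1 wild-type library or knock-in library 2 or 3 was left out, and that for Prkar2b when knock-in library 3 was.

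Genes that supply or remove agonists gave 3 falls and no rise among 12 tested, beside 3.99% of all tested genes lower, with a median of -0.24. Tbxas1, which makes thromboxane, fell from 268 ± 36.3 to 175 ± 15.5 FPKM (log2 fold change -0.61, limma adjusted p = 0.0235), while Ptgs1, the cyclooxygenase one step before it, measured 379 ± 59.0 and 391 ± 18.2 (0.06, 0.829). Alox12, the most abundant gene of the list, fell from 2933 ± 205 to 2151 ± 60.8 FPKM (-0.44, 0.0167) and the serotonin transporter gene Slc6a4 from 370 ± 15.2 to 251 ± 7.18 (-0.55, 0.0105; SD, n = 3 each). Entpd1, an ectonucleotidase that breaks down ADP, did not exceed 0.540 FPKM. Leaving out wild-type library 2 ended all 3 calls, as did leaving out knock-in library 3, and 1 of them, Slc6a4, was kept when wild-type library 3 was left out or when knock-in library 2 was.

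**Figure D5:**
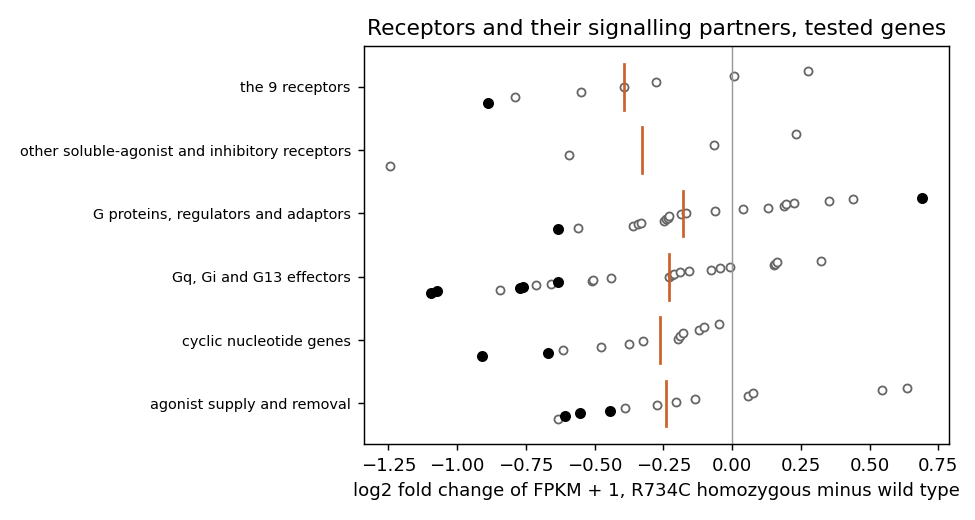
Log2 fold change of FPKM + 1 (knock-in minus wild type) for each tested gene of the receptors and of 5 lists of signalling partners; filled points passed at a limma adjusted p of 0.05 and orange bars are list medians. The 2 filled points of the G protein list lie on opposite sides of 0, and all filled points of the other lists lie below 0.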

How the data were processed

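Total RNA of mouse platelets from 3 wild-type and 3 homozygous knock-in libraries was isolated by TRIzol and miRNeasy Micro, turned into full-length cDNA by SMART-Seq HT and sequenced from Nextera XT libraries, per the labels' protocols. The authors deposited 1 table of FPKM by gene symbol for each library. The submitters' processing notes list TopHat2 2.1.1, SAMtools 0.1.18, Bowtie2 2.2.8 and Cuffdiff 2.2.1, and build mm10; settings and annotation are not given in the sources used here.

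A gene entered the test when its FPKM averaged 1 or more across the libraries, which held for 4859 genes. The two-sided test was limma 3.58.1 (R 4.3.3) with a variance trend on log2(FPKM + 1), genotype being the sole factor, and p-values were adjusted by Benjamini-Hochberg across the 4859. Fold changes are on that scale, which understates the change of low genes. The fit was checked on simulated data with independent noise per gene, with limits set for the sign and size of planted changes only. Shares of planted changes recovered and of false calls were also computed there, without a limit, and are not reported here. Effects shared by a whole library were not simulated, so the share of false calls in these data was not checked. Receptor ratios were compared with exact permutation tests. Gene positions and overlaps come from GENCODE M21 (GRCm38) and promoters from RefSeq. Alternatives changed the pseudocount, filter, scaling, variance estimate, sample weights, transcript length trend, replicate block and the libraries used.

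The receptors and gene lists were chosen with earlier results of these data known. Named genes were all 9 receptors and, in each list, the called genes, the most abundant gene and direct partners of a receptor (Gnaq, Gna13, Gnai2, Gnas, Plcb2, Plcb3, Adcy6, F2r), with genes that overlap a receptor gene and the 5 most like P2ry1. Itgb3, Gnaz, Htr2a, Ptafr, Adora2a, Entpd1, Ptgs1, Plcb1 and Plcb4 were named after their values were seen. The most abundant gene of 1 list is not reported here. The depth estimate is rough: in 1 library the commonest implied fragment total was 934428, so the median over libraries was used.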

Additional observations from a re-analysis of the deposited data

How the results depend on the processing

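P2ry1 kept its direction in all 19 alternatives and its call in 17. Alternatives in the filter, variance estimate or replicate block cannot move a log2 fold change, so they do not test its direction. As the P2ry1 values did not overlap between the groups, other pseudocounts, sample weights or leaving out libraries could not reverse it either. The receptors called, 1 as reported, became 2 under equal FPKM totals, 0 without the variance trend, 0 to 2 when 1 library was left out, and 3 without both libraries numbered 1. All genes called, 406 as reported, became 107 without a filter on low values (1506 at an unadjusted p under 0.05), 0 without the variance trend (1197 at an unadjusted p under 0.05), 0 to 610 when 1 library was left out (0 without knock-in library 3, with 994 at an unadjusted p under 0.05) and 728 without both libraries numbered 1. Genes called in the 5 partner lists, 12 as reported, became 5 without a filter, 19 under equal FPKM totals, 0 without the variance trend and 0 to 14 when 1 library was left out. The log2 fold change of P2rx1, 0.01 as reported, was -0.26 under equal FPKM totals, or -0.02 relative to the median of all genes. It was -0.0901 with quantile normalization, -0.0201 with the length trend removed and -0.0441 to 0.0555 when 1 library was left out. Ratios of receptors kept their sign in all 11 alternatives each, of which the replicate block could not change it. For P2ry12/P2ry1, P2rx1/P2ry1 and Ptgir/Tbxa2r, which did not overlap between the genotypes, leaving out libraries could not change the sign either. The log2 difference for F2rl2/F2rl3, 0.51 as reported, ranged from 0.02 without both libraries numbered 1 to 0.71 without knock-in library 3. That for Ptgir/Tbxa2r ranged from -2.93 to -0.55. The cause of these changes was not tested. The replicate numbers of the titles were not taken to pair the libraries: deviations of same-numbered libraries correlated at 0.158, 0.0235 and 0.141 across genes, and those of other pairs at -0.16 to 0.0674. Each library correlated best with its own number except knock-in library 2, which did so with wild-type library 3. With the replicate number as a block, P2ry1 kept its call (limma adjusted p = 0.0160), 306 genes were called over all genes, 1 among the receptors and 10 in the partner lists (F2r was called there, and Grk6, Prkca and Pde5a were not), and the ratios had a smallest possible sign-flip p of 0.25. Tbxa2r and Adra2a lay below a mean of 1 FPKM and were not tested.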
